A study of Danio rerio with 14 samples.

Results

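Cohesin is a ring-shaped protein complex that holds sister chromatids together and folds chromatin into loops, and Rad21 is the subunit that closes the ring. CTCF, a zinc finger protein that binds DNA by sequence, is known as a barrier at which moving cohesin halts, and cohesin also binds at active promoters and enhancers that lack CTCF. In the zebrafish embryo the zygotic genome is switched on in the blastula, so Rad21 maps from before and after that time show where cohesin sits as transcription begins. The sites described here are those at which Rad21 was listed at 4.5 hours post fertilisation (hpf), shortly after genome activation, and no longer listed at 10 hpf, when gastrulation ends.

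They were chosen by position from the Rad21 peak lists of both stages. A 4.5 hpf peak on chromosomes 1 to 25 was a member when it overlapped no 10 hpf Rad21 peak and no 10 hpf peak had its centre within 5 kb of the site's own centre. Of the 7144 Rad21 peaks of 4.5 hpf, 3453 met this rule, or 48.3% of the list, and 930 would meet it with a limit of 50 kb. Of the others, 2946 overlapped a 10 hpf peak by at least 1 bp (lasting sites, 41.2%), and 745 had no overlap but a 10 hpf centre within 5 kb (nearby sites, 10.4%). Members are called 4.5 hpf-only sites below, because the lists show which sites passed a peak caller and not how much Rad21 remained at the others. A member was absent from the 10 hpf list by definition, so that absence is a description and was not tested.

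The embryos were whole zebrafish of strain AB/PS with no treatment or mutation given, and the samples were chromatin immunoprecipitated with a custom antibody against Rad21 at 2.5, 4.5 and 10 hpf, chromatin immunoprecipitated with a custom antibody against CTCF at 10 hpf, and input without antibody for each stage. Each of these 7 groups had 2 samples from separate embryo collections, 14 in all, with 2000 embryos pooled at 2.5 hpf and 1000 later. Whole embryos mix all cell types, so a site bound in fewer cells and a site bound less in every cell cannot be told apart. The deposited values are 1 peak list per stage and antibody, each taken as a pool of both libraries, so no spread between replicates exists, no test over replicates was possible, and the intervals below cover counting error over sites only.

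The 2 Rad21 lists that define the sites were similar in depth but not in the share of tags within peaks, which was 1.03% at 4.5 hpf and 3.38% at 10 hpf. The file headers give 14255160 tags (aligned reads) at 4.5 hpf and 13260105 at 10 hpf, a false discovery threshold of 11 tags per peak in both, and 18075 peaks at 10 hpf. A site that fell from slightly above to slightly below such a threshold would be a member as much as one that lost all Rad21. A site can also be unlisted through the filters against input and local signal. At 10 hpf these removed 16425 and 1351 of 35851 putative peaks. Signal at these sites at 10 hpf was not analysed here. All positions are on the Zv9 build, and no gene is named because no Zv9 annotation was used here.

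Most 4.5 hpf-only sites were weakly tagged. The deposited scores are 1 in every row, but the list is ordered in 107 runs, within each of which chromosome names and positions only rise, as happens when a list is sorted by a whole number and ties fall back on position. Each run was read as 1 tag more than the run after it, with 9 tags for the last run. The start at 9 was set from the header, as the highest whole number at which the values sum to no more than the 146350 tags in peaks stated there, so their sum of 144691 is no check of the reading. The reading is not stated by the header and starts below its threshold of 11, and it runs too low at the head of the list, where unused values between runs leave no trace. The order of the sites does not depend on the start. On this scale the 4.5 hpf-only sites had a median of 14 tags (quartiles 13 and 16), the nearby sites 15 (13 and 18), the lasting sites 21 (16 and 30) and the whole list 16 (14 and 21). Sites of up to 15 tags made up 64.8% of the 4.5 hpf-only sites and 21.3% of the lasting ones, against 45.7% of the list. At 35 tags or more stood 25 of the 4.5 hpf-only sites (0.72%), 9 nearby sites (1.21%) and 564 lasting sites (19.1%).

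The share of sites that were listed at 4.5 hpf only fell at each step of rising tag number. It was 77.3% (exact 95% interval 72.2 to 81.9) of the 304 sites with 9 to 11 tags, 74.8% (71.5 to 77.9) of the 733 with 12, and 71.03% (67.5 to 74.3) of the 711 with 13. In the middle of the range it was 59.7% (56.2 to 63.2) of the 787 sites with 15 tags and 38.1% (34.6 to 41.7) of the 740 with 18 or 19. Of the 682 sites with 25 to 34 tags 14.5% (11.96 to 17.4) were 4.5 hpf-only, and of the 598 with 35 or more 4.18% (2.72 to 6.11). The share of nearby sites lay between 9.87% and 14.9% up to 24 tags, and fell to 6.01% at 25 to 34 tags and 1.51% at 35 or more. The share of lasting sites rose from 12.8% at 9 to 11 tags to 94.3% at 35 or more.

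**Figure D1:**
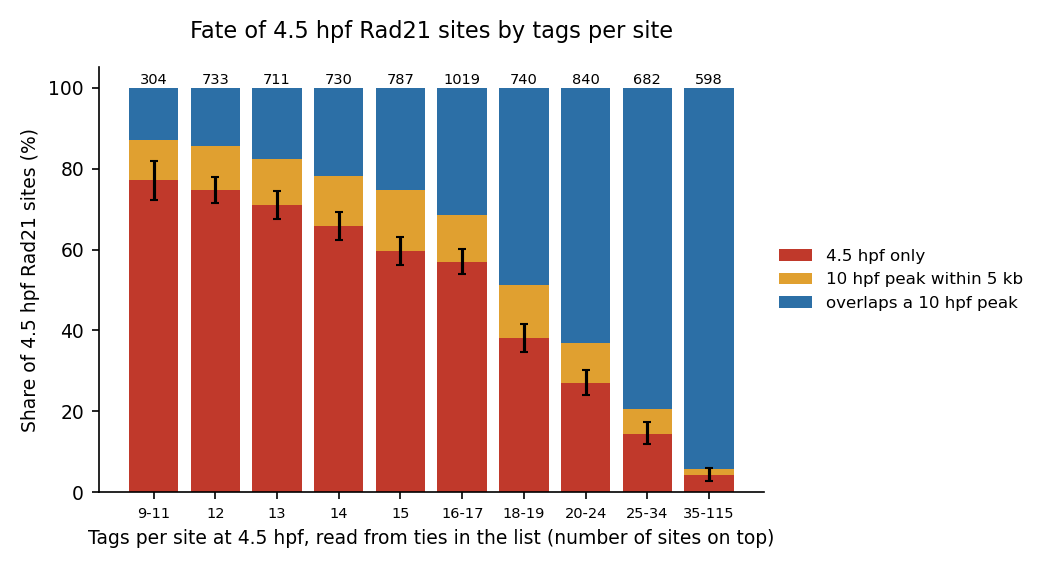
Share of the 4.5 hpf Rad21 sites (y axis, %) that were listed at 4.5 hpf only, had a 10 hpf peak within 5 kb, or overlapped a 10 hpf peak, by tags per site at 4.5 hpf as read from ties in the list (x axis). Error bars are exact 95% intervals of the 4.5 hpf-only share, which goes from 77.3% at 9 to 11 tags to 4.18% at 35 or more, and the number of sites stands above each bar.

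By place in the list the members had a median of 4727 of 7144 (quartiles 3284 and 5997), against 1837 for lasting sites. The first 3572 sites of the list held 1034 of them and the last 3572 held 2419. Only 14 were among the first 500 sites and 81 among the first 1000.

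The members with most tags by this reading are few, and the first 10 are given here in list order. The first site of the whole 4.5 hpf list, with rank 15 in its identifier, was a member, at chr4:56016345-56016513, with a value read as 115 tags. It lay on the long arm of chromosome 4, 116.3 kb from the nearest 10 hpf Rad21 peak, 252.8 kb from the nearest CTCF peak and 12.3 kb from the nearest 2.5 hpf Rad21 peak. The next member came at place 111, also on the long arm of chromosome 4, at chr4:42795987-42796155, read as 77 tags and 115.7 kb from the nearest 10 hpf Rad21 peak.

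The next, at chr9:31389526-31389694 (place 325, 47 tags), lay 7.53 kb from another 4.5 hpf site and 122.4 kb from any 10 hpf one. That nearest 10 hpf peak stood at place 111 of its own list. No tags were read for the 10 hpf lists of Rad21 and CTCF, so places in them are taken as order of deposit only. After it, the site at chr22:10663804-10663972 (place 335, 46 tags) was 33.6 kb from a 10 hpf Rad21 peak.

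Of the remaining 6, chr10:38416651-38416819 (place 371, 43 tags) had a 10 hpf Rad21 peak at 7.73 kb and a CTCF centre 211 bp away, without overlapping it. The site at chr11:1530235-1530403 (place 372, 43 tags) was 42.3 kb from a 10 hpf Rad21 peak, and chr25:19454673-19454841 (place 397, 42 tags) was 11.1 kb from one. Both had no CTCF peak within 50 kb, the nearest being 53.9 and 96.5 kb away.

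The site at chr15:16362203-16362371 (place 411, 41 tags) had a CTCF centre at 3495 bp and its nearest 10 hpf Rad21 peak at 62.8 kb. The last of these, chr19:46873930-46874098 (place 414, 41 tags) and chr13:2206729-2206897 (place 430, 40 tags), lay 10.4 and 12.3 kb from a 10 hpf Rad21 peak.

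Distance to the nearest 10 hpf Rad21 peak was part of the rule and is given as a description. The median over members was 26.2 kb (quartiles 13.4 and 53.01). There were 566 members at 5 to 10 kb, 777 at 10 to 20 kb, 1180 at 20 to 50 kb, 568 at 50 to 100 kb, 281 at 100 to 200 kb and 81 beyond 200 kb. Just outside the limit of 5 kb were chr10:37921507-37921675 at 5020 bp, chr16:52553000-52553168 at 5030 bp and chr24:1172774-1172942 at 5031 bp. Just inside it, and so not members, were chr15:5697937-5698105 at 4991 bp, chr23:29081482-29081650 at 4973 bp and chr6:34427756-34427924 at 4956 bp. The sites on both sides of the limit were thus alike in distance, and all but the one on chromosome 10, read as 20 tags, had 12 to 15 tags. The 5 farthest members were all on the long arm of chromosome 4, between 603 and 1593 kb from any 10 hpf Rad21 peak. Farthest of all was chr4:31261626-31261794 (place 2749, 18 tags), followed at 1386 kb by chr4:31946644-31946812 (place 2750, 18 tags).

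**Figure D2:**
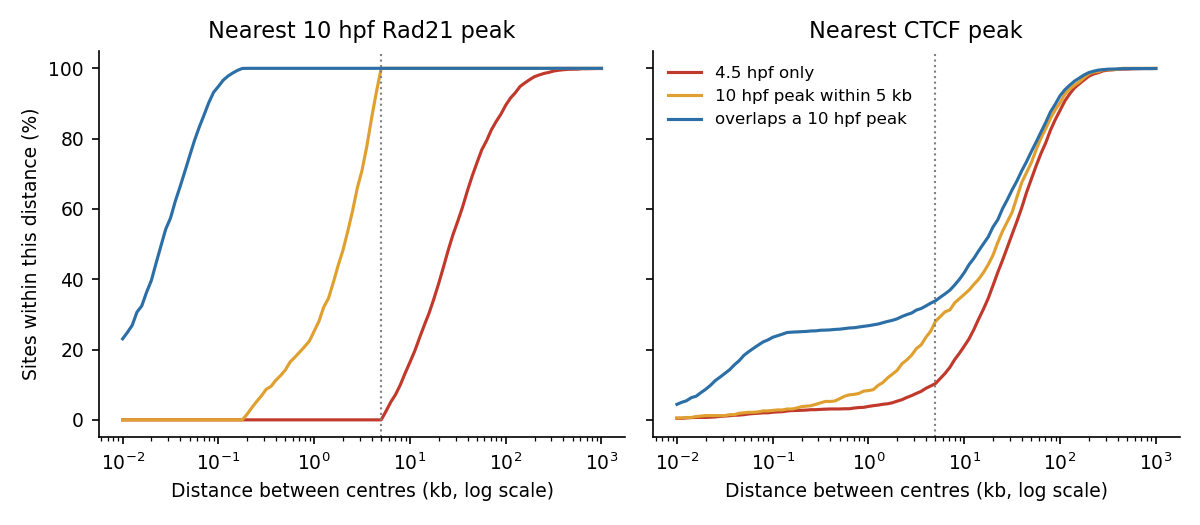
Cumulative share of sites (y axis, %) within a given distance (x axis, kb, log scale) of the nearest 10 hpf Rad21 peak (left) and the nearest 10 hpf CTCF peak (right), for the 3 classes of 4.5 hpf Rad21 sites. The dotted line marks 5 kb, which on the left is the limit of the rule, and on the right the 4.5 hpf-only curve stands at 10.3% there against 33.9% for lasting sites.

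Members rarely overlapped a peak of the 10 hpf CTCF list, which the rule did not use. CTCF was not profiled at 4.5 hpf, the stage at which members were listed. The CTCF list had a threshold of 15 tags, and filters against input and local signal removed 65469 and 10669 of its 90217 putative peaks. A site without a listed CTCF peak was thus not shown to lack CTCF. Of the 3453, 92 overlapped a CTCF peak, or 2.66% (2.15 to 3.26), where the background over all 4.5 hpf peaks was 11.9%. The members' share depends on the length of the 10 hpf list: it was 4.45% when members were chosen against the higher-placed 50% of that list, and 5.51% against as many of its peaks as the 4.5 hpf list holds. Among lasting sites it was 25.02% (23.5 to 26.6), a difference of -22.4 percentage points (Newcombe 95% interval -24.02 to -20.7). Part of that difference is built in, since lasting sites are 10 hpf Rad21 sites and 18.8% of all 10 hpf Rad21 peaks lay at CTCF. Nearby sites, which like members carried no 10 hpf Rad21 peak, stood at 3.22% (2.07 to 4.76), and members differed from them by -0.56 points (-2.16 to 0.65), an interval that includes 0. Seen from CTCF, 10688 of its 14079 peaks had no overlapping Rad21 peak at 10 hpf, and 117 of these, or 1.09%, had one at 4.5 hpf. The share over all CTCF peaks was not computed. Leaving out CTCF peaks with 10 hpf Rad21 works toward a low share, since 737 of the 853 4.5 hpf sites at CTCF were lasting sites.

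The overlap with CTCF was as low beside lasting sites of the same tags. Members at CTCF ranged from 1.39% to 7.07% over 10 classes of tags, and lasting sites from 9.57% to 36%. In each class the members were lower, and in 9 of the 10 the interval of the difference excluded 0. Matching on tags leaves in place the part that is built in, because lasting sites of every class are 10 hpf Rad21 sites. Nearby sites, whose share at CTCF was close to that of members, were not compared within tag classes. The exception was the class of 35 or more tags, with 1 of 25 members and 54 of 564 lasting sites at CTCF. Weighting the lasting sites to the tags of the members gave 29.5% (counting standard error 1.33 points), which put the members -26.8 points away (-29.5 to -24.2). Looked at the other way, 10.8% (8.78 to 13.1) of the 853 sites at CTCF peaks were 4.5 hpf-only, where sites of the same tags were so in 40.6%.

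**Figure D3:**
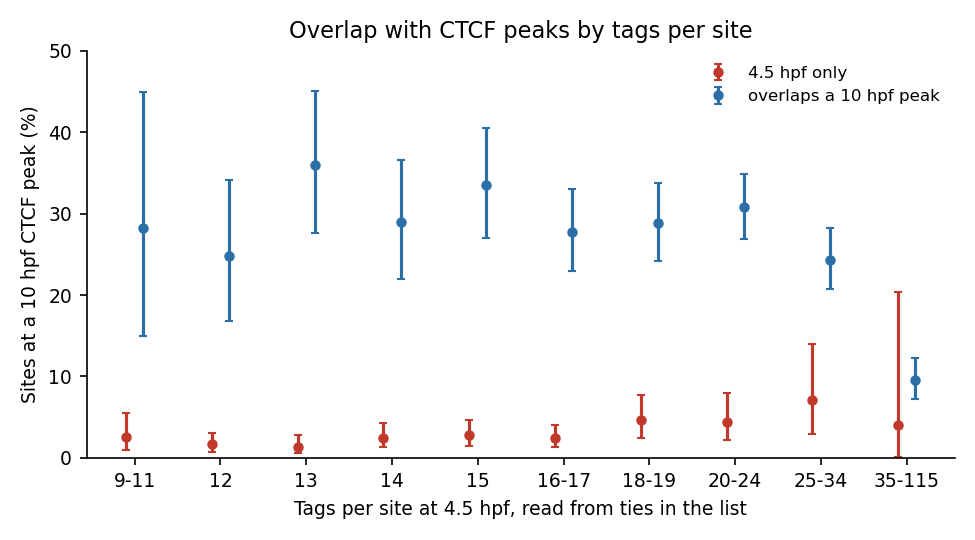
Share of sites overlapping a 10 hpf CTCF peak (y axis, %) by tags per site at 4.5 hpf (x axis), for 4.5 hpf-only and lasting sites, with exact 95% intervals. The 4.5 hpf-only sites lie between 1.39% and 7.07% and the lasting sites between 9.57% and 36%.

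The 92 members at CTCF peaks were spread over all 25 chromosomes, with at most 6 on one. Their centres lay a median of 41 bp (quartiles 15 and 79.3) from the CTCF centre, against 30 bp (14 and 52) for lasting sites at CTCF. The CTCF peaks involved stood lower in the CTCF list, at a median place of 3730 against 1900, and 24 of the 92 (26.1%) were past its midpoint, against 47 of 737 (6.38%) for lasting sites. The first of these members in list order was chr3:2173962-2174130 (place 467, 39 tags), 12 bp from the centre of a CTCF peak at place 529 and 166.4 kb from any 10 hpf Rad21 peak. It was followed by chr7:76824575-76824743 (place 812, 30 tags), chr10:72544-72712 (place 881, 28 tags), chr12:5173826-5173994 (place 888, 28 tags) and chr14:32732401-32732569 (place 895, 28 tags). The CTCF peaks at these stood at places 5648, 125, 1464 and 1493, all before the midpoint of the CTCF list. Their nearest 10 hpf Rad21 peaks were 23.3, 37.9, 92.4 and 7.91 kb away.

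Counting overlaps, a CTCF centre lay within 5 kb of 10.3% (9.32 to 11.4) of members, 28.1% (24.9 to 31.4) of nearby sites, 33.9% (32.2 to 35.6) of lasting sites and 21.9% of all. The excess of nearby over 4.5 hpf-only sites at this range follows in part from their rule, because the 10 hpf Rad21 peak within 5 kb of a nearby site may itself lie at CTCF. The median distance to CTCF was 29.0 kb for members (quartiles 12.3 and 61.7) and 15.7 kb for lasting sites (0.17 and 47.8). Without the sites that overlap a CTCF peak, members and lasting sites were closer to each other. A CTCF centre within 5 kb then stood beside 7.85% (6.97 to 8.82) of members and 11.8% (10.5 to 13.2) of lasting sites, a difference of -3.96 points (-5.62 to -2.36), and the medians were 30.1 and 28.1 kb. Nearby sites stood apart from both at 25.7% (22.5 to 29.0), and all sites without overlap were at 11.3%. At 50 kb, overlaps included, the shares also differed less, with a CTCF centre within reach of 68.4% of members and 76.2% of lasting sites.

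Under the limit of 5 kb, members were more often solitary within the 4.5 hpf list than other sites. Another 4.5 hpf Rad21 centre lay within 10 kb of 431 members, or 12.5% (11.4 to 13.6), against a background of 16.9% over all 4.5 hpf peaks, 18.02% (16.7 to 19.5) of lasting sites and 33.02% (29.6 to 36.5) of nearby sites. The rule works in this direction, since a 10 hpf peak near one of 2 close sites can take out both. Without a distance limit in the rule the members' share was 16.1% (15.03 to 17.3), an interval that holds the background. With limits of 1, 10 and 50 kb it was 15.4%, 8.28% and 5.81%. Among neighbouring sites up to 10 kb apart, the neighbour of a member was a member in 62.6% of cases and the neighbour of another site in 20.8%. The rule favours this too, since sites so close can lie within 5 kb of the same 10 hpf peak. For neighbours farther apart the difference was smaller, with 49.2% and 47.1% at 10 to 50 kb and 48.5% and 47.1% at 50 to 100 kb. Beyond 100 kb, where 3565 of the 7119 pairs lay, it was 53.3% and 48.6%.

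Of the 639 pairs of neighbouring sites up to 10 kb apart, 143 were pairs of members, or 22.4%. Over all 7119 pairs of neighbouring sites the share was 25.2%, so pairs of members were not more frequent at close range. Members made up 35.8% of the sites in the close pairs and 48.4% over all pairs. Among the 143, the pair highest in the list was on chromosome 25, at chr25:37346378-37346546 (place 555) and chr25:37346752-37346920 (place 489), 374 bp apart. It lay 38.2 kb from any 10 hpf Rad21 peak. The next pair, at chr25:36193340-36193508 and chr25:36201903-36202071, lay 8563 bp apart on the same chromosome. Another pair from chromosome 25 was among the first 5, with its sites at 36112499 and 36117385.

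Along the chromosomes members stood in 1658 unbroken runs of 4.5 hpf sites, of which 794 were single sites and 129 held 5 or more. The runs to be had with 48.3% of the list as members in any order were not computed. The longest run had 12 members over 3670 kb at chromosome 7, from 71474853 to 75144543, with 22 Rad21 peaks of 10 hpf and 33 CTCF peaks between them. The tightest of the 10 longest runs was on chromosome 25, from 35829022 to 36174909, where 10 members in a row covered 346 kb with 3 Rad21 peaks of 10 hpf and 2 CTCF peaks among them. A run on chromosome 22, from 1928391 to 4627261, also held 10 members, over 2699 kb.

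Members were found on every chromosome, from 84 on chromosome 22 to 205 on chromosome 7, and at a median density of 2.54 per Mb. Chromosome 25 stood highest in the share of its 4.5 hpf sites that were members, with 142 of 235, or 60.4% (53.9 to 66.7), and in density, with 3.69 per Mb. At its sites' tags the list as a whole gave 47.2%. The lowest share relative to tags was on chromosome 23, with 116 of 280, or 41.4% (35.6 to 47.4), where the list gave 50.6% at the same tags. These were the only chromosomes of the 25 whose interval lay wholly above or below the share at the same tags, in intervals not adjusted for the number of chromosomes. Chromosome 22 had a lower share still, 39.8% (33.2 to 46.8), but its sites had more tags (median 18), and at those tags the list gave 43.02%.

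**Figure D4:**
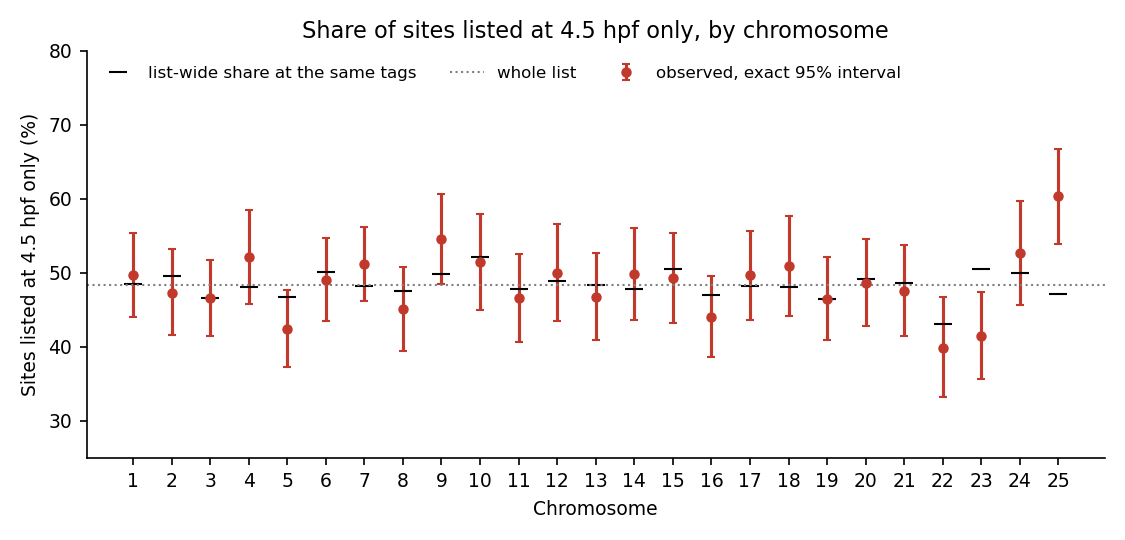
Share of each chromosome's 4.5 hpf Rad21 sites that were listed at 4.5 hpf only (y axis, %; points with exact 95% intervals), the share the whole list gave at the same tags (black dashes) and the whole list's 48.3% (dotted line). Chromosome 25 lies above its dash, at 60.4% against 47.2%, and chromosome 23 below, at 41.4% against 50.6%.

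The excess on chromosome 25 was not confined to its densest part. The windows from 35 to 37 Mb held 21 members among 31 sites, and without them 121 of the 204 others were members, or 59.3% (52.2 to 66.1), against 47.6% at the same tags.

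The long arm of chromosome 4, known to be rich in repeats and late replicating in zebrafish, was the other place where members made up a large share. Beyond 24 Mb, 54 of 84 sites were members, or 64.3% (53.1 to 74.4), where sites of the same tags gave 47.8% over the list. Up to 24 Mb it was 79 of 171, or 46.2% (38.6 to 54.0). The arm held 1.56% (1.18 to 2.04) of all members against 0.78% (0.50 to 1.17) of lasting sites, a difference of 0.78 points (0.25 to 1.32), with a background of 1.18% over all 4.5 hpf peaks. With a limit of 50 kb in the rule the arm held 3.76% of members. Members on the arm lay a median of 89.9 kb from the nearest 10 hpf Rad21 peak, against 21.5 kb on the rest of the chromosome. The rule picks sites far from 10 hpf Rad21 peaks, so all these values depend in part on how sparse such peaks are on the arm. The 1 Mb windows from 30 and 31 Mb, for example, held no 10 hpf Rad21 peak.

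Near chromosome ends members were fewer. Within 1 Mb of an end, with the length taken as the last listed position, lay 5.50% (4.77 to 6.32) of members, 7.84% (6.90 to 8.87) of lasting sites and 6.52% of all, a difference between members and lasting sites of -2.34 points (-3.59 to -1.11). Sites near ends had more tags (median 17), and 40.8% (36.3 to 45.4) of them were members against 43.02% at the same tags, a value within the interval.

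The 10 hpf list is longer, with 18075 peaks against 7144, so most windows hold more peaks at 10 hpf whatever happened at the members. Of the 1322 windows of 1 Mb with a 4.5 hpf site, 1230 had more at 10 hpf and 50 had fewer. By site, 3110 members (90.1%) lay where the 10 hpf list had more peaks than the 4.5 hpf list, and 208 (6.02%) where it had fewer. Over all 4.5 hpf sites the shares were 93.1% and 4.12%, and for lasting sites 96.0% and 2.38%, a comparison that the rule itself affects. The window with most members was chromosome 25 from 36 Mb, with 12 of 16 sites, and it held 15 Rad21 peaks at 10 hpf and 14 CTCF peaks. Chromosome 19 from 34 Mb and chromosome 13 from 31 Mb had 10 members each, of 12 and 13 sites, and 17 and 25 Rad21 peaks at 10 hpf. A further 8 windows had 9 members each. Those with the highest share among them were chromosome 12 from 14 Mb, with 9 of 11 sites, and chromosome 7 from 7 Mb, with 9 of 14, and these held 9 and 14 Rad21 peaks at 10 hpf. Among the 288 windows with at least 8 sites the share of members ranged from 0% to 88.9% with a median of 46.2%. The range to be had with members in any order was not computed, and windows named at either end were picked from many with few sites each. At the low end, chromosome 1 from 60 Mb had no member among 9 sites, and chromosome 15 from 28 Mb had 1 among 15.

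**Figure D5:**
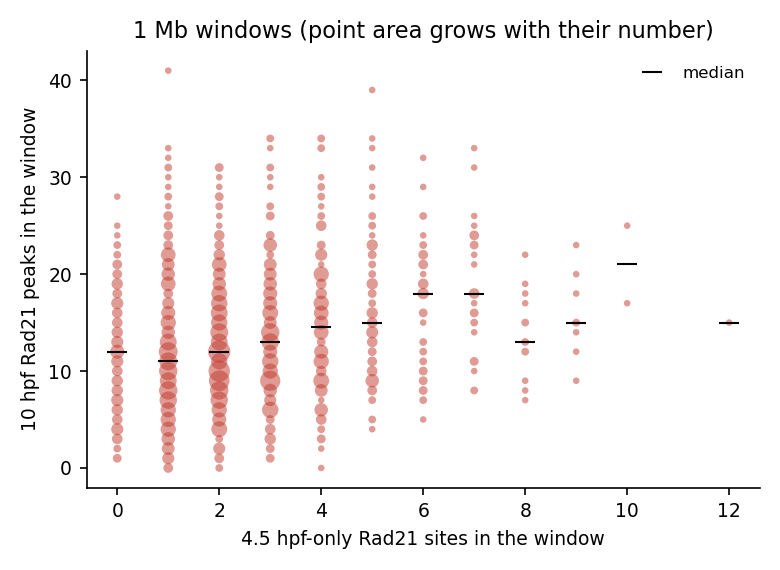
Rad21 peaks at 10 hpf (y axis) against 4.5 hpf-only Rad21 sites (x axis) in each 1 Mb window that held a 4.5 hpf site, with point area growing with the number of windows and dashes for medians. The medians are 12 peaks in windows without members, and 11, 12, 13, 14.5 and 15 in those with 1 to 5 members. With 6 and with 7 members they are 18, so they rise over this range. Windows with more members are few, with medians of 13 at 8 members (13 windows) and 15 at 9 (8 windows). The number of 4.5 hpf sites per window was not held fixed.

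No member overlapped a Rad21 peak of 2.5 hpf. The exact interval for 0 of 3453 reaches 0.11%, and only 2 of the 7144 sites of the list had such an overlap, so the classes could not be told apart in this. The closest member was chr20:47561927-47562095, with its centre 0.36 kb from that of a 2.5 hpf peak. Within 10 kb of a 2.5 hpf peak lay 33 members (0.96%), 6 nearby sites (0.81%) and 24 lasting sites (0.81%), against 63 of all 7144 sites (0.88%), a share that lies near that of the members. Of these 33 members 6 were on the long arm of chromosome 4. How many of the 63 sites of all classes lay there was not counted, so no link is read from this. The 2.5 hpf list was made with another library kit, read type and peak caller. Its chromatin was sonicated for 6 cycles, against 10 at 4.5 and 10 hpf. Stage cannot be told apart from any of these there.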

How the data were processed

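Chromatin immunoprecipitated with antibodies against Rad21 and CTCF was sequenced by the submitters from pooled whole embryos. Reads were aligned with Bowtie2 2.2.1 to Zv9, and HOMER was used, per the submitters' processing notes. The file headers of the 4.5 and 10 hpf lists state an FDR of 0.001 and, as fold filters, 4 against input and 4 against the local 10000 bp. Their deposited score is 1 in every row. At 2.5 hpf both libraries went into MACS2 (version 2.1.0.20151222; q-value 0.05), per the file headers. Its pileup (a signal) and fold enrichment (a ratio) were deposited by the authors and are not printed here.

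Positions were made 1-based. Overlaps, distances between centres, exact binomial and Newcombe 95% intervals were computed with Python 3.11.15, pandas 2.3.3 and SciPy 1.17.1, and checked on constructed lists. Sites named are the first 10 members, the first 5 at CTCF, the 3 on each side of the 5 kb limit and the 5 windows richest in members. Others singled out (the farthest members, pairs, runs, chromosomes 22, 23 and 25, and windows poor in members) were chosen after their values were seen, as were the reading of tags from ties, the tag classes and the shares near CTCF without overlaps. Members and comparisons were chosen with earlier results of these data known. Planned results on sequence and genes needed a Zv9 genome and were not run.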

Additional observations from a re-analysis of the deposited data

How the results depend on the processing

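The alternatives were run for the number of members, their share at CTCF, its difference from lasting sites, their place, and their shares with a neighbour and on the long arm of chromosome 4. Of these only the difference has a direction, and it stayed below 0 under each alternative run for it. Lasting sites are 10 hpf Rad21 sites under every alternative, so part of this direction is built in. The difference from nearby sites was not run under any alternative. No alternative was run for the other chromosomes, chromosome ends, windows or 2.5 hpf peaks. The number of 4.5 hpf-only sites was 930 with a limit of 50 kb, and between 2887 and 4498 under the other alternatives. The share at a CTCF peak was 3.66% with that limit, 4.45% with the higher 50% of the 10 hpf list, 5.51% with that list cut to the number of 4.5 hpf peaks, 3.97% and 2.11% in the first and last 3572 sites of the 4.5 hpf list, 1.998% when 50% of the peak had to overlap and 1.97% with the higher 50% of the CTCF list. The difference from lasting sites was -19.2 and -28.5 points in the first and last 3572 sites, -20.4 when 50% of the peak had to overlap, -20.3 with the cut 10 hpf list and -26.8 weighted to tags. The median place was 4598 without a distance limit, 4557 with the higher 50% of the 10 hpf list, 4483.5 with the cut list, 4820 by the rank in the identifiers and 2560.5 within the first 3572 sites. The share with a neighbour followed the limit, at 16.1% without one, 15.4% at 1 kb, 8.28% at 10 kb and 5.81% at 50 kb. It was 9.38% and 5.95% in the first and last 3572 sites, where neighbours from the other side of the list are lost by construction, and 4.84% and 48.5% for neighbours within 5 and 50 kb. The share on the long arm of chromosome 4 was 3.76% with a limit of 50 kb, and 3.85% lay on the whole chromosome. The cut 10 hpf list, the last 3572 sites of the 4.5 hpf list and the weighting to tags were chosen after seeing the data. Except where stated, the cause of these shifts was not tested. No paired analysis was possible because each list is 1 per stage and antibody with no value per library, and for the same reason no replicate could be left out. Places within a run of tied sites follow chromosome names, so a division of the list by place cuts through ties.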

Other observations

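Members made up 35.7% (33.0 to 38.5) of the 4.5 hpf sites with another site within 10 kb and 50.9% (49.6 to 52.2) of the rest, where sites of the same tags gave 44.2% and 49.2%. Sites with a CTCF centre within 5 kb but no overlap were members in 37.2% (33.6 to 40.9), against 48.5% at the same tags, and those with no CTCF centre within 50 kb in 54.7% (52.5 to 56.9), against 50.4%. The limit of 5 kb in the rule takes part in the first 2 of these contrasts. The contrast at 50 kb was close to that of all sites without CTCF overlap. Of those, 53.4% (52.2 to 54.7) were members, against 49.4% at the same tags. No separate effect of distance to CTCF is read from it. The member whose CTCF peak stood highest in the CTCF list, at place 21, was chr4:2817063-2817231, on the short arm of chromosome 4, itself at place 4465 of the 4.5 hpf list and 38.7 kb from the nearest 10 hpf Rad21 peak.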
